A study of Mus musculus with 12 samples.

Results

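The acute phase genes described here were 10 of the 54532 genes in a table of RNA-seq read counts, chosen by gene name. They are 4 serum amyloid A genes (Saa1, Saa2, Saa3 and Saa4), 3 orosomucoid genes (Orm1, Orm2 and Orm3), the pentraxin Apcs, the lipocalin Lcn2 and the haptoglobin gene Hp. The table compared liver with white fat (WAT, taken from the inguinal depot) of male mice aged 52 weeks, killed after 12 hours without food. WT libraries came from mice with the genotype wild type, and KO libraries from mice labelled with a global deletion of the microRNA cluster of miR-322, miR-503 and miR-351. Each of the 4 groups (WT_liver, KO_liver, WT_WAT and KO_WAT) held 3 libraries of total RNA, and age, sex and fasting were the same in all of them.

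The acute phase response is the change in plasma proteins that hepatocytes make during inflammation, injury or infection. Cytokines of the interleukin-6 and interleukin-1 type act through STAT3, C/EBP factors and NF-kB, with glucocorticoids, to raise positive acute phase proteins and to lower negative ones such as albumin. Adipocytes and macrophages of fat also make some of these proteins, among them haptoglobin, orosomucoid, lipocalin 2 and serum amyloid A3.

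The deleted cluster lies on the X chromosome and encodes microRNAs, which recognise transcripts mainly through bases 2 to 8 of the mature strand. The 3 mature sequences are shown because their seeds, in capitals, define the sites searched in the acute phase transcripts. They are from RefSeq, build GRCm38.p6, minus strand, at chrX:53054306-53054327, chrX:53054027-53054049 and chrX:53053315-53053338 in the order given.
mmu-miR-322-5p: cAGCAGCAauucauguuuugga
mmu-miR-503-5p: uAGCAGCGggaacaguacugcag
mmu-miR-351-5p: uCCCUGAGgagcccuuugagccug
The seeds of miR-322-5p and miR-503-5p share their first bases, and that of miR-351-5p is unrelated to them. The site for miR-322-5p, TGCTGCT, was present in the longest annotated 3′ UTR of 19.7% of 21707 genes. The site for miR-503-5p, CGCTGCT, was present in 3.81% of them, and the site for miR-351-5p, CTCAGGG, in 12.7%. In the 10 acute phase genes, whose longest 3′ UTRs were 116 to 1959 bases long, 0 of 10 held any of the 3 sites. Only those of Saa3 and Saa4 were long, at 1959 and 1527 bases, and the rest were 116 to 235 bases. The shares over all genes were not matched for length.

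The Saa genes lie next to each other on chromosome 7 (GRCm38, Saa3 at 46711998 to 46715700, Saa4 at 46727998 to 46732603, Saa1 at 46740497 to 46742980 and Saa2 at 46751790 to 46754313), and only Saa2 is on the plus strand. The Orm genes lie together on the plus strand of chromosome 4 (Orm1 at 63344560 to 63348163, Orm3 at 63356162 to 63359511 and Orm2 at 63362449 to 63365878). Apcs is on chromosome 1 (172893961 to 172895041), Lcn2 on chromosome 2 (32384633 to 32388252) and Hp on chromosome 8 (109575128 to 109579172), all on the minus strand. No other annotated gene overlaps any of the 10. Annotated transcripts were aligned, and that of Saa3, at 555 bases, was not its longest. The aligned transcripts of Saa1 and Saa2 were 94.4% identical over 606 bases, and those of Orm1 and Orm2 91% over 775 bases. Those of Saa1 with Saa3 and Saa4 were 76.3% and 76.8% identical. Reads of near-identical copies may have been split or dropped in the authors' counting, so Saa1 against Saa2 and Orm1 against Orm2 and Orm3 carry that uncertainty.

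RefSeq promoters (GRCm38.p6) were found for 8 of the 10 genes, and not for Orm1 and Hp. The 250 bases upstream of each start were searched on both strands for a C/EBP motif (TTNNGNAAT), a STAT motif (TTCNNNGAA) and an interleukin-6 type II motif (CTGGGAA). They were also searched for an NF-kB motif and an HNF1 motif. The windows with a match are shown because these motifs belong to the pathway that controls the acute phase genes, with the match in capitals.
Saa1, C/EBP, chr7:46743144-46743173, minus strand: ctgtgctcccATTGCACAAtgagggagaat
Saa2, C/EBP, chr7:46751639-46751668, plus strand: ctgtgctcccATTGCACAAtgagggaaaat
Orm2, C/EBP, chr4:63362330-63362359, plus strand: tgcgcaagacATTTCCCAAgtgctggggag
Apcs, STAT, chr1:172895275-172895304, minus strand: atcttcTTCTAGGAAagcacagggtcatga
Apcs, interleukin-6 type II, chr1:172895165-172895194, minus strand: cagctcttcccTTCCCAGcaatgaaatctg
Apcs, interleukin-6 type II, chr1:172895088-172895117, minus strand: ctgttattgatTTCCCAGcacaggggctaa
The C/EBP and interleukin-6 type II letters match the opposite strand of these windows. C/EBP letters were present in 3 of 8 promoters against 10.2% of 32817 RefSeq promoters, STAT letters in 1 of 8 against 7.01%, and interleukin-6 type II letters in 1 of 8 against 9.1%. None of the 8 held the NF-kB letters, present in 3.9% of all promoters, or the HNF1 letters, present in 0.737%. The Saa1 and Saa2 promoters, read in opposite directions along the chromosome, were 95.6% identical over 249 bases, so their shared match is not independent.

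Total counts were 14531438 to 15971178 per library, on 19295 to 22963 genes with a count, and no 2 libraries of a group were alike within sampling noise. Mir503 and Mir322, genes of the deleted cluster, had 0 counts in all 6 KO libraries, against 16 and 3 counts over the WT livers and 48 and 37 over the WT fat libraries. Liver libraries were checked by the hepatocyte marker Alb (76229 to 93137 CPM, counts scaled to the library total) and WAT libraries by the adipocyte marker Adipoq (1581 to 2366 CPM, against 0 and 2 counts in all over the WT and KO livers). The WAT libraries differed widely in Alb, with 1863, 125 and 76.8 CPM in WT_WAT replicates 1, 2 and 3 and 1977, 228 and 731 CPM in KO_WAT replicates 1, 2 and 3. WT_WAT replicate 1 and KO_WAT replicate 1 stood apart in this respect, and fat values that move by over 1.5 times or change sign without both are given in both ways.

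In WT liver Hp was by far the most abundant of the 10, at 1965 ± 144 CPM per kilobase of an annotated transcript (SD, n = 3). The transcript used was not always the longest of its gene. That of Saa3 was 555 bases long, whereas another Saa3 transcript had a 3′ UTR of 1959 bases. Hp encodes the protein that binds free haemoglobin. Orm1 followed at 406 ± 81.9 and Saa4, the constitutive serum amyloid A of high density lipoprotein, at 118 ± 5.65 CPM per kilobase. Apcs, which encodes serum amyloid P component, the pentraxin that is a major acute phase protein of the mouse, was at 51.2 ± 11.6 and Saa1 at 19.8 ± 6.70 CPM per kilobase. The WT values of these 5 genes did not overlap with those of their neighbours in the order. The other 5 genes (Saa2, Lcn2, Orm2, Saa3 and Orm3) lay between 3.35 and 6.15 CPM per kilobase in the mean, and their ranges overlapped. With the summed length of all annotated exons in place of this transcript length, Saa1 stood among these at 4.86 CPM per kilobase in the mean, below Orm2 at 5.05.

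In WT fat Hp was also first, at 1689 ± 579 CPM per kilobase, and Orm1 second at 204 ± 64.9. Saa3, the serum amyloid A of macrophages and adipocytes, was next at 40.2 ± 26.5 CPM per kilobase. Orm3 at 19.5 ± 6.62 and Lcn2 at 12.6 ± 4.89 followed, and the ranges of Saa3, Orm3 and Lcn2 overlapped. The place of Saa3 depended on the length used. With the summed length of all annotated exons it stood at 8.56 in the mean, below Orm3 at 19.5, and Lcn2 stood at 4.39. Orm2 stood at 4.22 ± 1.74 CPM per kilobase. Saa4, Apcs, Saa1 and Saa2 were at 1.07, 0.347, 0.145 and 0.0348 CPM per kilobase in the mean, with Saa1 at 4 counts and Saa2 at 1 count over the 3 libraries. In WT_WAT replicates 1, 2 and 3, Saa4 was at 2.87, 0.269 and 0.0657 and Apcs at 0.718, 0.322 and 0 CPM per kilobase, so replicate 1 weighed heavily in both means. The 10 genes together took 0.305% to 0.404% of all counts in liver and 0.187% to 0.342% in fat, and Hp alone made up 67.4% to 82.8% of their counts in liver and 88.1% to 92.4% in fat.

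**Figure D1:**
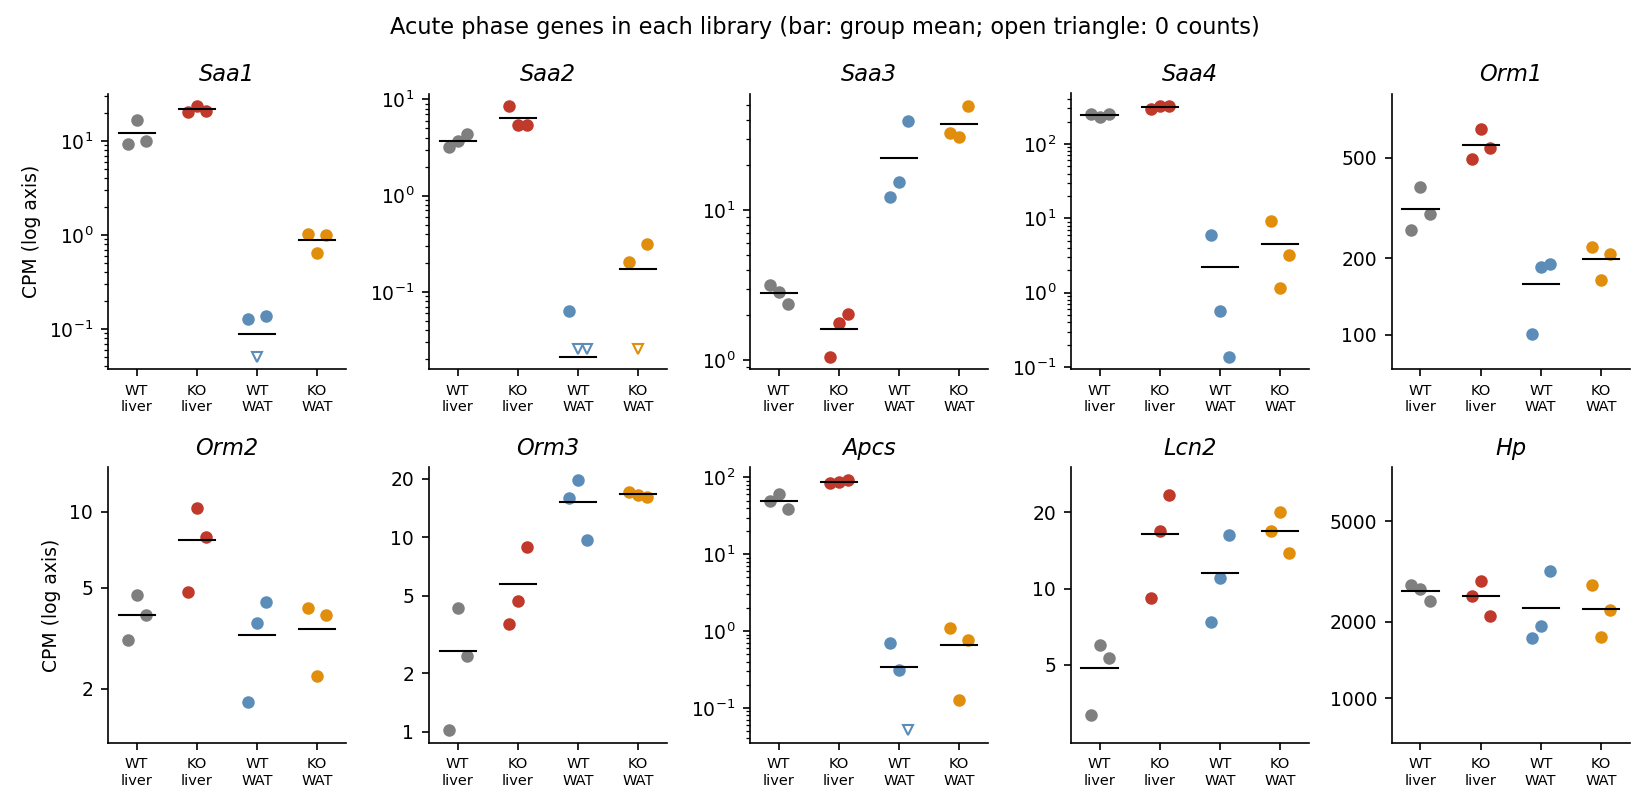
CPM of each of the 10 genes on a log axis, with 1 point per library, 4 groups of 3 libraries, a bar for the group mean and an open triangle for a library with 0 counts. In liver the KO points of Saa1, Saa2, Saa4, Orm1, Orm2, Apcs and Lcn2 lie above all WT points, those of Saa3 lie below, and those of Orm3 and Hp overlap with WT; in WAT the KO points lie above all WT points for Saa1 and, among the other 9, for none.

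Between the WT tissues, 9 of the 10 genes passed the test (edgeR quasi-likelihood, Benjamini-Hochberg adjusted p under 0.05), as did 70.9% of all 15715 genes tested. Of these, 7 were higher in liver (33.5% of all genes were) and 2, Saa3 and Orm3, were higher in fat (37.3% of all genes were). The liver excess was largest for 4 genes whose log2 differences their SEs did not separate. These were Apcs at 7.96 ± 0.51 (SE), Saa1 at 7.79 ± 0.54, Saa2 at 7.69 ± 0.64 and Saa4 at 7.60 ± 1.31. Their order changed without WT_WAT replicate 1, the WT fat library highest in Alb. Saa4 was then at 10.2 ± 0.31, Saa2 at 9.21 ± 0.83, Apcs at 8.98 ± 0.49 and Saa1 at 8.13 ± 0.64. Orm1 was higher in liver by 1.82 ± 0.28, Orm2 by 1.09 ± 0.38 and Hp by 1.04 ± 0.24 on the log2 scale. Saa3 had a log2 difference of -2.17 ± 0.47 and Orm3 of -1.70 ± 0.49, and Lcn2, at -0.42 ± 0.35, did not pass (adjusted p = 0.314). In bulk tissue, fewer cells of a type and less RNA per cell cannot be told apart.

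The fitted differences between the WT tissues used normalisation factors of 0.741 to 0.766 for liver and 1.32 to 1.35 for fat, so they are on another scale than CPM. Scaled to library totals alone, an alternative chosen after the data were seen, the median of all genes was -0.88 in place of -0.05 on the log2 scale. On that scale Hp differed by 0.22 (adjusted p = 0.411) and Orm2 by 0.26 (adjusted p = 0.546), and neither passed, whereas Lcn2 passed as higher in fat at -1.25 (adjusted p = 0.0100). With GC and length trends removed, Orm2 was at 0.63 and Hp at 0.59, and neither passed (edgeR adjusted p = 0.133 and 0.0570). Orm2 also lost its call when WT_liver replicate 2 or 3, or WT_WAT replicate 1 or 2, was left out (adjusted p of 0.0516 to 0.102), and Orm3 without WT_liver replicate 3 (adjusted p = 0.0641). Between the KO tissues Lcn2 had the opposite sign, at 0.80 (adjusted p = 0.0553), and Orm3 was at -0.70 (adjusted p = 0.0643).

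The tissues differed in which copy of each family made up its counts. Saa4 made 90.9% to 94.1% of the Saa counts in the 6 livers, and Saa3 made 66.4% to 99.3% of them in the 6 fat libraries. Orm1 made 97.0% to 98.4% of the Orm counts in liver and 85.1% to 93.1% in fat. The share of Orm3 was 0.385% to 1.59% in liver and 4.73% to 13.4% in fat, with no overlap between tissues.

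**Figure D2:**
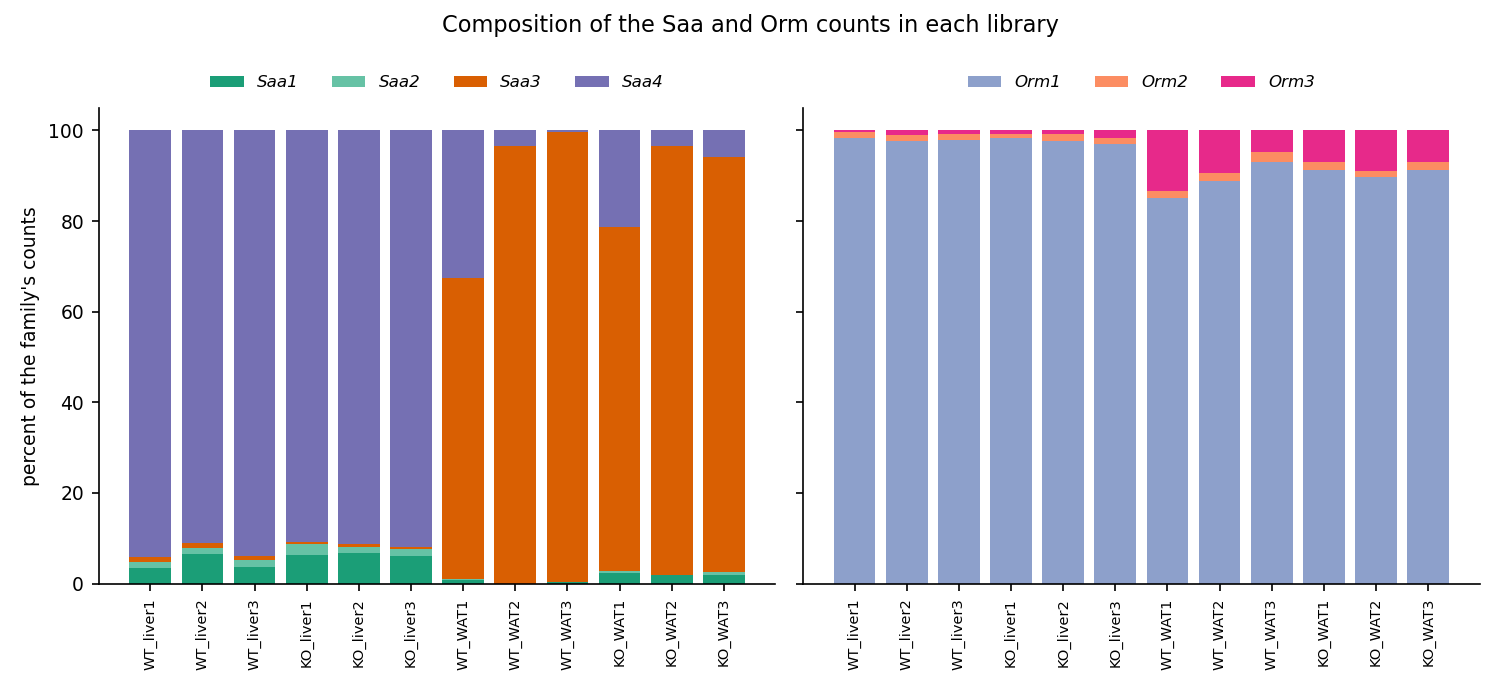
Stacked bars of the percent of the Saa counts (left) and of the Orm counts (right) that each gene took in each of the 12 libraries. Saa4 takes 90.9% or more in every liver, Saa3 takes 66.4% or more in every WAT library, and Orm1 takes 85.1% or more in all 12.

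In liver, 7 of the 10 genes had higher CPM in every KO library than in any WT library, 1 was lower in every KO library, and 2 overlapped; over all genes tested, 7.71% were higher and 11.1% lower without overlap. The fitted log2 fold change was above 0 in 8 of the 10 (49.9% of all genes). None of the 10 passed an adjusted p of 0.05 in edgeR (0.155% of 13529 genes tested did), 8 had an unadjusted p under 0.05 (12.2% of all genes did), DESeq2 called 5 (1.19% of the genes it tested) and limma voom 0 (0.0222%). With no filter on low counts, edgeR called 7 of the 10 and 1.51% of 25017 genes, the 7 being Saa1, Saa4, Orm1, Orm2, Orm3, Apcs and Lcn2. The median log2 fold change, KO minus WT, was 0.86 over the 10 and close to 0 over all genes. Each gene's adjusted p below is Benjamini-Hochberg over all genes tested.

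Saa1, which encodes a major inducible serum amyloid A of plasma, was at 9.34, 16.7 and 10.1 CPM in the WT livers and at 20.4, 23.5 and 21.0 CPM in the KO livers. The KO values lay close together and above all WT values, of which replicate 2 was the highest. The log2 fold change was 0.87 ± 0.21 (SE), with an edgeR adjusted p of 0.169. Saa2, its inducible neighbour, was at 3.18, 3.67 and 4.33 CPM in WT and at 8.52, 5.38 and 5.47 CPM in KO. Replicate 1 was the highest KO library, and the groups did not overlap. The log2 fold change was 0.82 ± 0.25 (edgeR adjusted p = 0.250).

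Saa4 was at 249, 234 and 257 CPM in the WT livers and at 299, 324 and 320.3 CPM in the KO livers. All KO values were higher, by less than for the inducible pair, at a log2 fold change of 0.38 ± 0.09 (edgeR adjusted p = 0.162). Saa3 went the other way, with 3.18, 2.83 and 2.37 CPM in WT and 1.06, 1.77 and 2.02 CPM in KO. All KO livers were below all WT livers, with a log2 fold change of -0.76 ± 0.33 (edgeR adjusted p = 0.393) on 126 WT and 72 KO counts in all.

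Orm1 encodes a plasma lipocalin that binds drugs and lipids and is induced by glucocorticoids and cytokines. It was at 259.8, 384 and 299 CPM in the WT livers and at 492, 651 and 543 CPM in the KO livers. Replicate 2 was the highest library of both groups, and the groups were well apart, with a log2 fold change of 0.86 ± 0.16 (edgeR adjusted p = 0.0822). Orm2 was at 3.11, 4.70 and 3.92 CPM in WT and at 4.82, 10.4 and 7.96 CPM in KO. The lowest KO library lay just above the highest WT library, and the log2 fold change was 1.004 ± 0.29 (edgeR adjusted p = 0.229). Orm3 was at 1.02, 4.32 and 2.43 CPM in WT and at 3.57, 4.70 and 8.91 CPM in KO. These groups overlapped, and the log2 fold change of 1.17 ± 0.54 had an edgeR adjusted p of 0.445.

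Apcs had the smallest p of the 10 in liver. It was at 49.3, 61.1 and 38.7 CPM in WT and at 83.9, 87.4 and 93.9 CPM in KO. The lowest KO library was well above the highest WT library, with a log2 fold change of 0.86 ± 0.15 (edgeR adjusted p = 0.0562). Lcn2 encodes lipocalin 2, which binds bacterial siderophores and is made by hepatocytes, adipocytes, epithelia and neutrophils. It was at 3.18, 5.99 and 5.34 CPM in WT and at 9.18, 16.8 and 23.4 CPM in KO. The groups did not overlap and the KO livers were widely spread, so that the largest fold change of the 10, at 1.79 ± 0.40 on the log2 scale, had an edgeR adjusted p of 0.201.

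Hp was at 2806, 2695 and 2428 CPM in the WT livers and at 2540, 2911 and 2121 CPM in the KO livers. The groups overlapped almost entirely, and the log2 fold change was -0.04 ± 0.12 (edgeR adjusted p = 0.919). The most abundant of the 10 genes was therefore the one with the smallest measured difference in liver.

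The libraries nearest to the other genotype were often the same ones. WT_liver replicate 2 was the highest WT liver for 6 of the 10 genes (Saa1, Orm1, Orm2, Orm3, Apcs and Lcn2), and KO_liver replicate 1 was the lowest KO liver for 8. Without WT_liver replicate 2, edgeR called 3 of the 10 (Saa1, Orm1 and Apcs, against 0.0577% of all genes tested), and the log2 fold changes of Saa1 and Apcs were 1.19 and 1.04. Without KO_liver replicate 1 it called 1 of the 10, Lcn2, at 2.09 (0.0575% of all genes were called). Both libraries were picked by the values of the 10 genes themselves. For genes whose nearest value they held, a larger fold change without them follows from that choice. Leaving out WT_liver replicate 1 or 3, or KO_liver replicate 2 or 3, gave 0 calls among the 10.

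Marker lists of other cell types were measured beside these values. The 5 cholangiocyte markers summed to 35.4 to 47.1 CPM in WT and 55.4 to 67.3 CPM in KO livers, and the 12 hepatocyte markers to 130795 to 136592 CPM in WT and 117524 to 120954 CPM in KO, with no marker of either list at 0 in any of the 6 livers. Both sums moved with genotype without overlap, and their part in the result was not tested. Most of the hepatocyte sum was Alb, at 87140 to 93137 CPM in WT and 76229 to 78159 CPM in KO. Alb is also on the negative acute phase list. Markers of the hepatocyte list went both ways in the edgeR fit. Fgb and Cps1 were at log2 fold changes of 0.40 and 0.37. Alb, Ahsg, Apoa2, Ttr and Serpina1a were at -0.19, -0.20, -0.12, -0.07 and -0.0066. The 11 neutrophil markers summed to 1.83 to 4.51 CPM in WT and 1.96 to 2.66 CPM in KO livers, with 3 to 8 of them at 0 in a library. The 9 macrophage and Kupffer cell markers summed to 115 to 122 CPM in WT and 114 to 158 CPM in KO, with none at 0. Neither immune sum was higher in all KO livers.

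**Figure D3:**
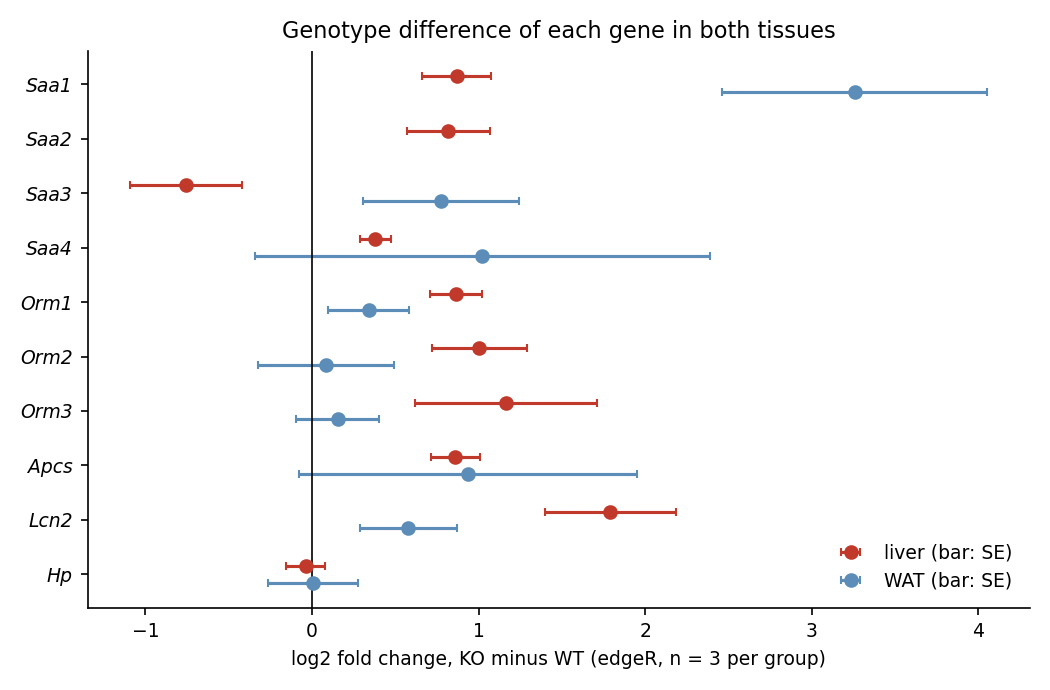
Log2 fold change, KO minus WT, with its SE for each gene in liver (red) and WAT (blue), from edgeR with 3 libraries per group; Saa2 was not tested in WAT. In liver 8 of 10 points lie above 0 and Saa3, at -0.76, lies farthest below it; in WAT all 9 lie above 0, Saa1 is farthest at 3.26 and Hp is nearest at 0.01.

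In fat, 9 of the 10 genes passed the filter on low counts and Saa2 did not. All 9 had a log2 fold change above 0 (49.6% of all 15919 genes tested did), with a median of 0.58 against close to 0 over all genes, and only Saa1 had groups that did not overlap (7.05% of all genes were higher without overlap). Without both libraries highest in Alb, 6 of the 8 genes tested were above 0 (49.5% of all genes). Without WT_WAT replicate 1 alone 7 of 9 were (48.9% of all genes), and without KO_WAT replicate 1 alone 6 of 9 (48%). None passed an adjusted p of 0.05 in edgeR, DESeq2 or limma voom (0% of all genes did in edgeR), and 1 had an unadjusted p under 0.05 (7.64% of all genes did).

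Saa1 had 2, 0 and 2 counts in the WT fat libraries and 15, 10 and 16 counts in the KO fat libraries. Every KO library was above every WT library, at a level far below that of liver. The log2 fold change was 3.26 ± 0.79, with an unadjusted p of 0.00285 and an edgeR adjusted p of 0.649, and at 4 counts in all in WT its size is poorly fixed. Without both fat libraries highest in Alb it was 3.498 ± 1.11. Saa2 had 1, 0 and 0 counts in WT and 3, 0 and 5 counts in KO, too few for a comparison.

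Saa3 was at 12.3, 15.5 and 39.2 CPM in WT fat and at 32.8, 30.7 and 49.4 CPM in KO fat. WT replicate 3 lay above 2 of the KO libraries, and the log2 fold change was 0.78 ± 0.47 (edgeR adjusted p = 0.707). Saa4 was at 6.02, 0.564 and 0.138 CPM in WT and at 9.25, 1.15 and 3.21 CPM in KO. Its highest library in each group was the one highest in Alb, and its log2 fold change of 1.02 ± 1.36 had an SE larger than itself (edgeR adjusted p = 0.863). The Saa4 value was 2.59 ± 0.84 without both of those libraries (edgeR adjusted p = 0.194). It was 3.62 ± 1.07 without WT_WAT replicate 1 alone and -0.0178 ± 1.43 without KO_WAT replicate 1 alone. Its size and direction thus depended on which of these libraries was kept.

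Orm1 was at 100, 185 and 190 CPM in WT fat and at 223, 164 and 209 CPM in KO fat. The groups overlapped, at a log2 fold change of 0.34 ± 0.24 (edgeR adjusted p = 0.738), and without both libraries highest in Alb the value was 0.0032 ± 0.14. Orm2 was at 1.77, 3.63 and 4.404 CPM in WT and at 4.15, 2.24 and 3.91 CPM in KO, and its log2 fold change of 0.08 ± 0.41 (edgeR adjusted p = 0.965) changed sign without those libraries, to -0.38 ± 0.39. Orm3 was at 15.8, 19.8 and 9.63 CPM in WT and at 17.1, 16.5 and 16.1 CPM in KO. The KO libraries lay within the WT range, with a log2 fold change of 0.15 ± 0.25 (edgeR adjusted p = 0.888).

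Lcn2 was at 7.35, 10.96 and 16.2 CPM in WT fat and at 16.8, 20.1 and 13.8 CPM in KO fat. WT replicate 3 was above KO replicate 3, and the log2 fold change was 0.58 ± 0.29 (edgeR adjusted p = 0.663), or 0.34 ± 0.28 without both libraries highest in Alb. Apcs had 11, 5 and 0 counts in WT and 16, 2 and 12 counts in KO, with a log2 fold change of 0.94 ± 1.02 (edgeR adjusted p = 0.817). Hp was at 1724, 1928 and 3164 CPM in WT and at 2791, 1740.4 and 2230.3 CPM in KO. The WT range enclosed all KO values of Hp, and the log2 fold change of 0.01 ± 0.27 (edgeR adjusted p = 0.998) was -0.35 ± 0.26 without both libraries highest in Alb.

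Beside these values, the 11 neutrophil markers summed to 10.5 to 17.3 CPM in WT fat and 6.84 to 12.9 CPM in KO fat, with 3 to 7 of them at 0 in a library, and the 9 macrophage markers to 530.1 to 993 and 427 to 766 CPM, with none at 0. Neither was higher in all KO libraries. The 6 markers of keratinocytes and other epithelium summed to 28.8 to 40.1 CPM in WT and 48.9 to 63.9 CPM in KO, without overlap, with 1 or 2 of them at 0 in a library. The 5 cholangiocyte markers, of which Epcam is also in the epithelial list, summed to 60.4 to 75.6 CPM in WT and 80.9 to 104 CPM in KO fat, also without overlap, with at most 1 at 0 in a library. The part of either list in the result was not tested. KO_WAT replicate 1 was the highest KO fat library for 7 of the 10 genes and KO_WAT replicate 2 the lowest for 8.

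Because Alb varied so widely among the fat libraries, each gene was set against Alb in the same library. Saa4 had 2.51 to 4.20 counts per 1000 Alb counts in the 6 livers and 1.79 to 5.05 in the 6 fat libraries, so that the fat libraries held 0.652 to 1.64 times the Saa4 counts that the liver ratio of their genotype gives. For Apcs the same quotient was 0 to 4.55, above 1 in WT_WAT replicate 2 alone, on 5 counts. Within each fat group the order of the Saa4 counts (95, 9 and 2 in WT, 136, 18 and 51 in KO) was the order of the Alb counts.

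Saa1 was at 0.510, 0 and 13.4 times the liver ratio in WT fat, on 2, 0 and 2 counts, and at 1.84, 10.02 and 4.92 times in KO fat, where the liver ratio to Alb gives 8.15, 0.998 and 3.25 of the 15, 10 and 16 counts seen. Saa2, with 0 to 5 counts in a fat library, was at 0 to 5.16 times the liver ratio. The other 6 genes were far above the liver ratio in every fat library. The lowest quotients were 15.5 for Orm1, 21.0 for Orm2, 31.4 for Hp, 39.7 for Lcn2, 116 for Orm3 and 212 for Saa3. Hp, for example, had 27.2 to 37.7 counts per 1000 Alb counts in liver and 926 to 41203 in fat.

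**Figure D4:**
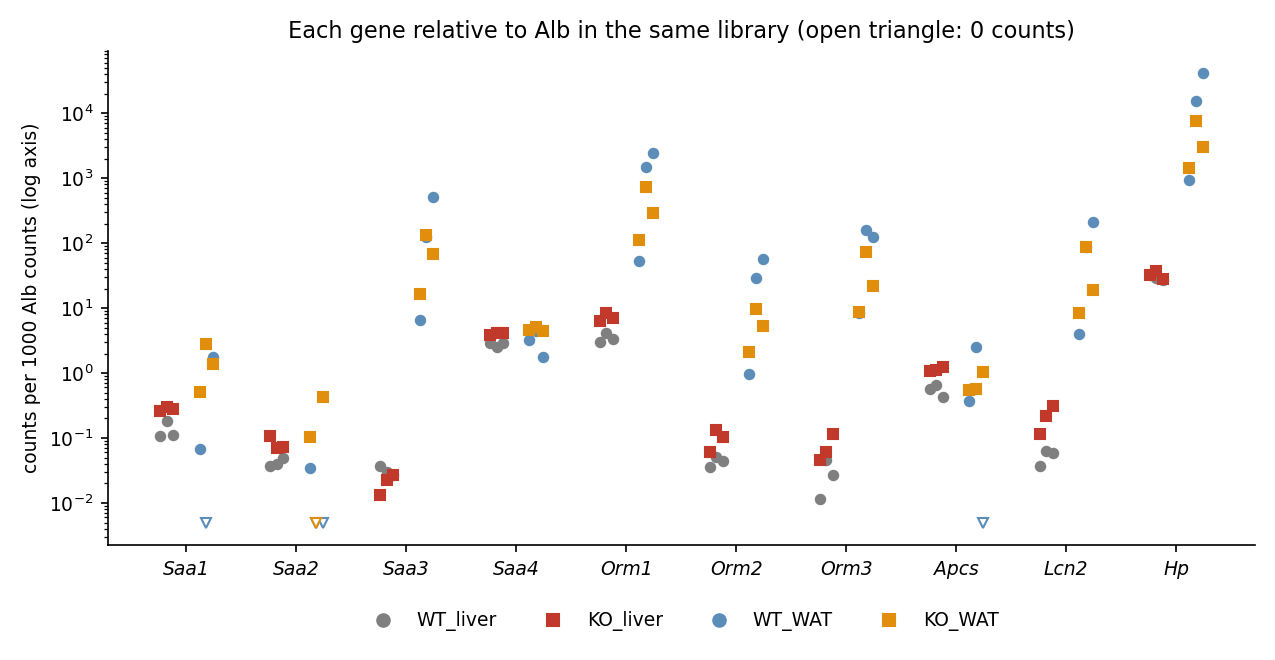
Counts of each gene per 1000 Alb counts of the same library on a log axis, liver libraries to the left and WAT libraries to the right of each gene's position, circles for WT, squares for KO and open triangles for 0 counts. Saa4 is at 2.51 to 4.20 in liver and 1.79 to 5.05 in WAT, whereas Saa3, Orm1, Orm2, Orm3, Lcn2 and Hp lie at least 15.5 times above the liver ratio in every WAT library.

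The difference between the genotype effects of the tissues, fat minus liver, was tested with all 12 libraries in 1 model. None of the 10 genes passed an adjusted p of 0.05 in edgeR, DESeq2 or limma voom (0% of 16857 genes did in edgeR), and 3 had an unadjusted p under 0.05 (13.4% of all genes did). Saa1 and Saa3 had positive differences of 2.34 ± 0.66 (edgeR adjusted p = 0.229) and 1.51 ± 0.61 (adjusted p = 0.328) on the log2 scale. Lcn2 had a negative difference of -1.23 ± 0.53 (edgeR adjusted p = 0.347). Orm1, Orm2 and Orm3 were at -0.54 ± 0.33, -0.94 ± 0.53 and -1.03 ± 0.63, Saa2 at 1.70 ± 1.13, Saa4 at 0.62 ± 1.30, Apcs at 0.04 ± 0.57 and Hp at 0.03 ± 0.31. Without both fat libraries highest in Alb, 6 of the 10 had an unadjusted p under 0.05, as did 22.6% of all genes, and 0 of the 10 passed the adjusted threshold, which 4.16% of all genes did. Saa4 was then at 2.24 ± 0.59 (edgeR adjusted p = 0.0547), Saa2 at 3.14 ± 1.69, Orm1 at -0.81 ± 0.26, Apcs at 0.58 ± 1.02 and Hp at -0.26 ± 0.33.

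Other genes of the acute phase pathway were read from lists by role. Of 33 further positive acute phase proteins, 29 were tested in liver, of which 21 were above 0 and 8 below, with a median log2 fold change of 0.20. None passed an adjusted p of 0.05 in edgeR, and 8 positive and 1 negative value had an unadjusted p under 0.05 (5.97% and 6.24% of all genes did). The smallest p-values were those of Fgg and Fgb, fibrinogen chains, at 0.44 ± 0.11 and 0.40 ± 0.10 (edgeR adjusted p = 0.183 for each), and of Crp, C-reactive protein, at 0.32 ± 0.10 (edgeR adjusted p = 0.244). Of 13 negative acute phase proteins in liver, 4 were above 0 and 9 below, with a median of -0.12. Among them Cps1, the entry enzyme of the urea cycle, was at 0.37 ± 0.11, F12, coagulation factor XII, at -0.31 ± 0.11, and Apoa1, the main protein of high density lipoprotein, at -0.45 ± 0.15 (edgeR adjusted p = 0.250, 0.283 and 0.302).

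The cytokines that induce the response were mostly near the limit of detection. Il6 had 0 counts in all 6 livers, which allows up to 3 counts in a library (counting error only), and 6 and 3 counts over the WT and KO fat libraries. Of 12 cytokines 4 were tested in liver, all below 0, with Il1b, interleukin-1 beta, at -0.80 ± 0.74 on 79 WT and 44 KO counts. In fat 4 were tested, of which 2 were above 0 and 2 below, and none of the 8 tests had an unadjusted p under 0.05.

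Of 12 receptors and adaptors tested in liver, 8 were above 0 and 4 below, with Il1r1, the interleukin-1 receptor, at 0.35 ± 0.12 and its adaptor Myd88 at -0.41 ± 0.14 (edgeR adjusted p = 0.295 and 0.279). Of 19 transcription factors and kinases in liver, 6 were above 0 and 13 below. Stat3, which carries the interleukin-6 signal, was at 0.30 ± 0.10, and Creb3l3, a liver factor that acts on Apcs and Crp, at -0.32 ± 0.10 (edgeR adjusted p = 0.278 and 0.249). No gene of these lists passed the test in liver.

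In fat the further positive acute phase proteins were above 0 in 24 of 30 and the negative ones in 12 of 13, with medians of 0.36 and 0.47. Lrg1, a leucine-rich plasma glycoprotein, was at 0.40 ± 0.19, and Rbp4, the retinol carrier that fat also makes, at 0.47 ± 0.18 (edgeR adjusted p = 0.659 and 0.649). Albumin and most other genes of the negative list are hepatocyte products, and the hepatocyte marker sum was 855 to 5446 CPM in WT fat and 2314 to 4720.4 CPM in KO fat, with overlap and no marker at 0; its part in these values was not tested. Of the 12 receptors, 2 were above 0 and 10 below, with Tlr4, the endotoxin receptor, at -0.49 ± 0.16, and of 18 factors and kinases 10 were above 0, with Cebpb at 0.60 ± 0.18 (edgeR adjusted p = 0.649 for both). No gene of these lists passed the test in fat.

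**Figure D5:**
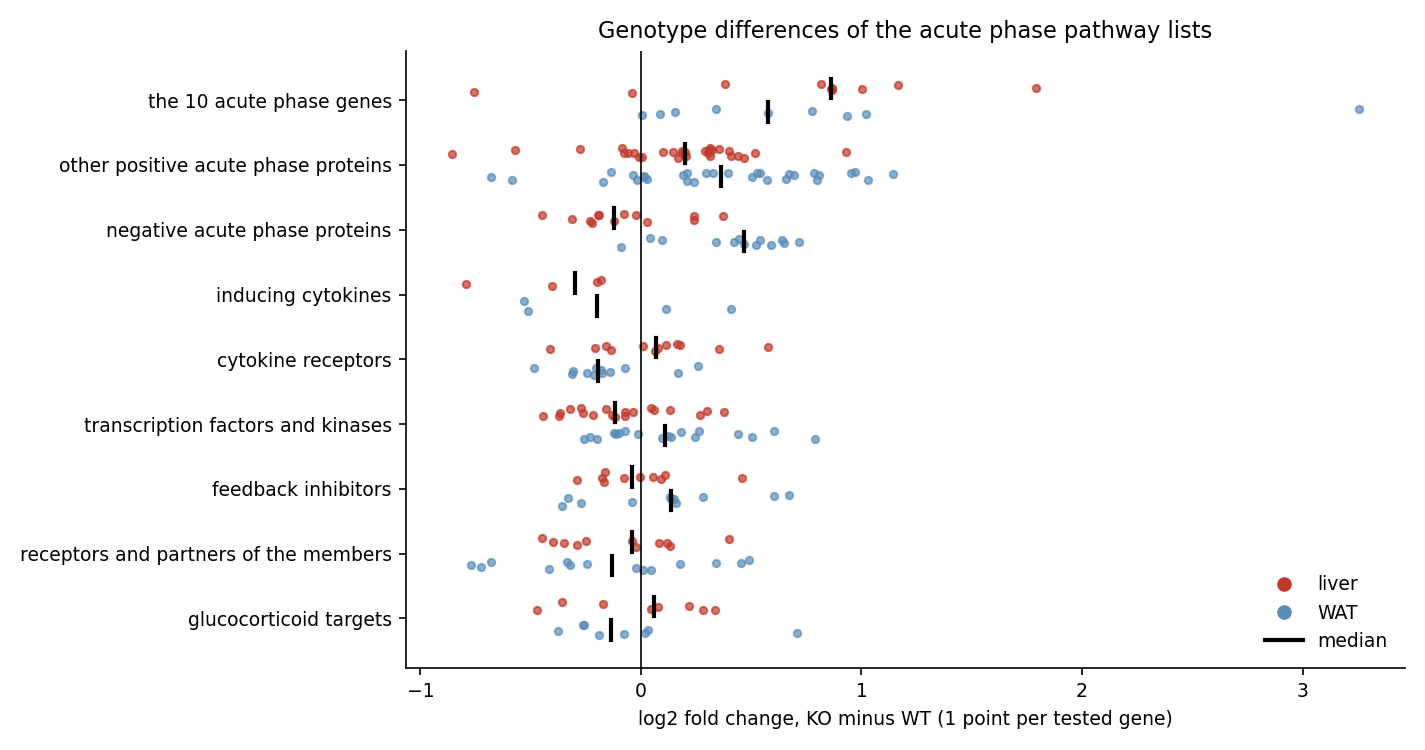
Log2 fold change, KO minus WT, of each tested gene (1 point) of the 10 acute phase genes and of 8 pathway lists in liver (red) and WAT (blue), with a black bar at the median of each list. The medians of the 10 genes are 0.86 in liver and 0.58 in WAT, and those of the 8 lists lie between -0.30 and 0.20 in liver and between -0.20 and 0.47 in WAT.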

How the data were processed

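The deposited file holds counts, whole numbers of reads per Ensembl gene with 1 column per sample, and the authors applied no normalisation that the values show. Per the submitters' processing notes, CASAVA 1.8, HISAT2 and the builds GRCm38 and mm10 were used, and per the labels' protocols the library kit was directional. For the counting step, the program, the annotation and the use of strand are each "not given in the sources used here". Samples were grouped by title into 4 groups of 3. Nothing in the labels says that replicates were separate animals, so p-values measure only the spread between these samples, which may be technical.

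CPM were computed on library totals, per kilobase with GENCODE transcript lengths. Each comparison was fitted over all genes by the robust quasi-likelihood F test of edgeR 4.0.16 (R 4.3.3) after filterByExpr and TMM scaling, with Benjamini-Hochberg adjustment and a threshold of 0.05, and the SE is the log2 fold change over the square root of F. The fits were tested on simulated counts in which 200 genes changed by 2 on the log2 scale. They recovered 100% of these in liver, 95% in fat, 88.5% for the difference of genotype effects and 91.5% between WT tissues. Of the genes called, 8.26%, 8.21%, 5.35% and 2.14% were false in that order. Smaller changes, such as those of the 10 genes in liver, were not simulated. Alternatives were other scalings and filters, DESeq2 1.42.0, limma 3.58.1 (voom), no robust step, the replicate number as a block, removal of GC and length trends, all 12 libraries in 1 model, summed counts of near-identical copies (Saa1 with Saa2, and the Orm genes), leaving out both fat libraries richest in Alb, Alb as a covariate, the KO tissues, leaving out each library in turn and, added after seeing the data, library totals alone. The 10 genes were named throughout, with up to 3 genes of smallest p per list and comparison (fewer where their role is not described; 1 gene is not reported here) and the 3 genes most like Saa1, Orm1, Apcs, Lcn2 and Hp in pattern. Il6 and the markers Alb and Adipoq were chosen after their values were seen. The 10 genes and all lists were chosen with earlier results of these data known.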

Additional observations from a re-analysis of the deposited data

How the results depend on the processing

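In liver, the count of the 10 genes past the threshold, 0 as reported, was 7 with no filter on low counts, 5 with DESeq2, 2 with the replicate block (Orm1 and Lcn2, adjusted p = 0.00508 for both; 28 of all genes), and 0 to 3 when single libraries were left out. All genes called in liver numbered 21 as reported, 378 with no filter, 139 with DESeq2, 3 with voom, 4 with GC and length trends removed, 3 without the robust step, 1 in the fit of all 12 libraries and 5 to 34 when single libraries were left out. In fat they numbered 0 as reported, 29 with no filter, 43 with DESeq2 and 3 in the fit of all 12 libraries, and for the difference between tissues 0 as reported, 21 with no filter, 199 with DESeq2 and 713 without both libraries highest in Alb. In fat, the count at an unadjusted p under 0.05, 1 as reported, was 2 with no filter, DESeq2, voom, the replicate block, all 12 libraries or without both libraries highest in Alb, 3 with Alb as a covariate, 0 with a filter of 1 CPM, which removes Saa1, and 1 to 3 without single libraries. For the difference between tissues, 3 as reported, it was 1 with no filter or voom, 6 without both libraries highest in Alb, and 1 to 6 without single libraries, with 6 when WT_WAT replicate 1 was left out. The share of all genes at this unadjusted p was 7.64% in fat and 13.4% for the difference as reported. For the difference it was 22.6% without both libraries highest in Alb. In the other settings this share was not computed, so those counts cannot be read as a result about the 10 genes. Some signs changed. Hp was 0.0898 in liver with GC and length trends removed; in fat it was -0.0024 with DESeq2 or its size factors, -0.012 with library totals, -0.0078 with the 1 CPM filter, -0.0033 with all 12 libraries, -0.23 with trends removed and -0.35 without both libraries highest in Alb; its difference between tissues was -0.32 and -0.26 in the last 2 settings. Orm2 in fat was -0.38 without those libraries, and Lcn2 between tissues 0.80 in the KO libraries. Without single libraries Hp ranged from -0.15 to 0.0634 in liver and from -0.18 to 0.31 in fat; in fat Saa4 ranged from -0.0178 to 3.62, Orm2 from -0.23 to 0.34 and Orm3 from -0.0940 to 0.40; for the difference Saa4 ranged from -0.39 to 3.27, Apcs from -0.48 to 1.11 and Hp from -0.10 to 0.36. The cause was not tested. Same-numbered libraries of the 2 genotypes correlated at -0.058 to 0.079 in liver and 0.059 to 0.415 in fat, where 6 of 6 correlated best with their own number; the labels give no pairing. Saa1, Saa2, Saa4 and Apcs in fat are limited by depth.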

Other observations

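Feedback inhibitors of cytokine signalling and glucocorticoid targets were also read. In liver 4 of 10 inhibitors were above 0, with Ptpn6, a phosphatase that restrains cytokine receptors, at -0.29 ± 0.13 (edgeR adjusted p = 0.406). In fat 7 of 11 were above 0. Of 8 glucocorticoid targets, 5 were above 0 in liver and 3 in fat, and Fkbp5, a co-chaperone of the glucocorticoid receptor, was at 151 ± 11.9 CPM in WT and 107 ± 19.1 CPM in KO livers (SD, n = 3), a log2 fold change of -0.47 ± 0.13 (edgeR adjusted p = 0.198). Of the receptors and partners of the 10 proteins, 4 of 11 were above 0 in liver and 6 of 14 in fat. Scarb1, the high density lipoprotein receptor that also binds serum amyloid A, was at -0.29 ± 0.11 in liver and 0.49 ± 0.15 in fat (edgeR adjusted p = 0.327 and 0.649), and its difference between tissues was 0.76 ± 0.19 (edgeR adjusted p = 0.214).

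The genes whose log2 CPM followed those of single acute phase genes most closely were found by the root mean square difference of deviations from the tissue mean. Over the 6 livers these were 1700028E10Rik, Ccne2 and Jchain for Saa1 (0.137, 0.152 and 0.172) and Nipal3, 4930516B21Rik and Esr1 for Apcs (0.106, 0.109 and 0.135), against medians over 11319 genes of 0.562 and 0.514. Over all 12 libraries they were Tstd3, Ccnd2 and Miga1 for Orm1 (0.235, 0.238 and 0.238), Mlkl, Ptgr1 and Tmem237 for Lcn2 (0.387, 0.479 and 0.479) and Arhgap6, Ctsz and Dnmt3a for Hp (0.0991, 0.101 and 0.115). The medians over 10547 genes were 0.481, 0.803 and 0.319. With so few libraries and so many genes, such likeness is a description of these libraries.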
